A study of Saccharomyces cerevisiae with 12 samples.

Results

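The small subunit of the yeast cytosolic ribosome (40S) is built from 1 ribosomal RNA and a set of proteins whose genes are named RPS. Here 55 RPS genes of Saccharomyces cerevisiae are described, chosen by their identifiers as the cytosolic genes from RPS0A to RPS31, out of 6764 features listed in both deposited tables. They comprise 23 pairs of paralogs with the endings A and B, 8 single-copy genes and RPS30B. The data are 12 RNA libraries taken at 36 h, with 3 replicates of each of 4 strains. YJ-04 (labelled low SAM) and YJ-06 (labelled high SAM), with a bikaverin biosynthesis module in both, are called the bikaverin pair. YJ-08, labelled low SAM, and YJ-09, labelled high SAM, both carried plasmid pRS416 and are called the pRS416 pair. SAM, S-adenosylmethionine, is the methyl donor of most cellular methylation reactions, and bikaverin is a fungal pigment. The labels do not state how SAM was raised, which parent the strains derive from, or that replicates are separate cultures. P-values therefore cover the spread among these libraries alone, and that spread may be technical.

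Yeast kept many ribosomal protein genes in duplicate after an ancient genome duplication, and most duplicates encode nearly or fully identical proteins. Transcription of these genes depends on Rap1 with Fhl1 and Ifh1 at most of them and on Abf1 at some, is lowered through Crf1, and follows nutrient signals through TORC1, protein kinase A and Sfp1. Several paralogs are also adjusted after transcription, by splicing or mRNA decay under the control of the protein they encode, so the A and B messages need not move together.

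RPS28 and RPS6, whose A to B ratio changed in both comparisons, are shown first, because whether a fragment can be assigned to A or B depends on the letters that separate them. RPS28A (YOR167C, R64, chrXV:648804-649007, minus strand) and RPS28B (YLR264W, chrXII:673131-673334, plus strand) have no intron and share 88.2% of their coding bases. Capitals mark the 24 of 204 coding bases that differ, and the longest identical run is 35 bases. The sequences are from the RefSeq R64 reference.
RPS28A: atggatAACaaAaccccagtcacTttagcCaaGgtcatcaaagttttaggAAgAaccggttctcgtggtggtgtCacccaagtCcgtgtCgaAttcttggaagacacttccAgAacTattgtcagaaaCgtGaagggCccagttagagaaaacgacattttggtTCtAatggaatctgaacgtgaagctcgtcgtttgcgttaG
RPS28B: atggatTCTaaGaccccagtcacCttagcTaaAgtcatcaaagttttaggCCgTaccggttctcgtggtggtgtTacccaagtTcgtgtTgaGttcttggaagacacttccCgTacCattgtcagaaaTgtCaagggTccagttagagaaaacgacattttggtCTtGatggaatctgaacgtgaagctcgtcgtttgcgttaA

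RPS6A (YPL090C) and RPS6B (YBR181C) are much closer, at 99.2% of coding bases. Only 6 of 711 coding bases differ, and an identical run of 311 bases lies between 2 of them. A stretch of 120 bases from coding base 22 to 141 is shown because it holds 3 of these 6 differences, in capitals. RPS6A is at chrXVI:377861-377980 and RPS6B at chrII:592282-592401, both on the minus strand.
RPS6A: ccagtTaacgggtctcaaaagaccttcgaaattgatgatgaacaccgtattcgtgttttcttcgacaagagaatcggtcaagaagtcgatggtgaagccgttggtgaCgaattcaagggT
RPS6B: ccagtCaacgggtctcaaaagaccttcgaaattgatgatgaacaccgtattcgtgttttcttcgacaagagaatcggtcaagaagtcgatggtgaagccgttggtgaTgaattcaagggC

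In all 100-base windows of the transcripts, 53.4% of those of RPS6 occurred letter for letter in the other paralog. The split of reads within this pair is therefore uncertain, since the labels do not state how fragments with more than 1 match were handled. RPS4 shared 13.3% and RPS24 17.2% of windows, and 47 members had only unique windows.

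Levels are FPKM, fragments counted per kilobase of gene and scaled to the depth of the library, as deposited. As a set, RPS genes were among the abundant messages in every group. Their median level was 565 FPKM in bikaverin low SAM, 662 in bikaverin high SAM, 542 in pRS416 low SAM and 531 in pRS416 high SAM, against 45.9 FPKM for the median feature tested in pRS416 low SAM. In pRS416 low SAM the order was led by RPS31, which encodes a ubiquitin fusion, RPS26A, RPS15, RPS20 and RPS12. RPS25A, RPS26A, RPS20, RPS31 and RPS14A led in bikaverin low SAM. The top member reached 1378 (RPS25A), 1382 (RPS31), 1326 (RPS31) and 1427 FPKM (RPS26A) in the 4 groups in the same order. The lowest member was RPS9A at 196 FPKM in bikaverin low SAM, RPS28B at 53.4 in bikaverin high SAM, RPS27A at 152 in pRS416 low SAM and RPS29A at 159 in pRS416 high SAM. RPS28B in bikaverin high SAM was thus near the median feature tested there, at 46.8 FPKM.

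The 55 genes together took 3.30%, 3.49% and 3.55% of summed FPKM in the bikaverin low-SAM libraries and 4.61%, 4.33% and 3.89% in the high-SAM ones. These groups did not overlap, although 3 against 3 libraries cannot give an exact permutation p below 0.1. In the pRS416 pair the shares were 3.24%, 3.14% and 3.08% at low SAM and 3.55%, 2.92% and 3.34% at high SAM, and the groups overlapped. Replicate 1 of bikaverin high SAM had the highest level within its group for 49 of the 55 members and replicate 3 for none. In bulk RNA, more cells with these messages and more message per cell cannot be told apart, nor can a rise of this share and a fall of other messages.

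**Figure D1:**
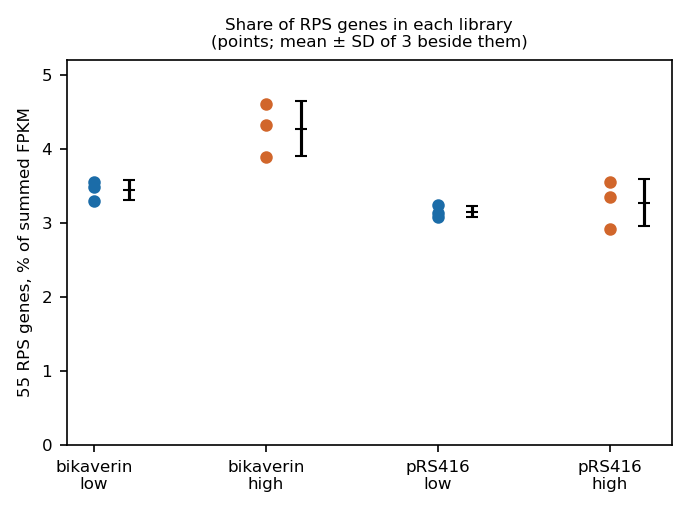
Share of summed FPKM (percent, vertical axis) taken by the 55 RPS genes in each of the 12 libraries (points), with the mean and SD of each group of 3 beside them. Bikaverin high SAM, from 3.89% to 4.61%, lies above bikaverin low SAM, while the pRS416 groups overlap.

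In the bikaverin pair 20 of the 55 RPS messages rose at high SAM, 4 fell and 31 were not called. Each gene was tested with limma on log2(FPKM + 1), and called where its p, adjusted over all features by Benjamini and Hochberg, was below 0.05. All 55 members passed the filter of a mean of 1 FPKM. Of these, 24 were called (43.6%), against 56.7% of all 6459 features. The share of members that rose was 36.4% and of those that fell 7.27%, while 28.8% of all features rose and 27.9% fell. The low and high libraries did not overlap for 29 members (65.6% of all features), 24 with high SAM above (33.4%) and 5 with high SAM below (32.2%). The median log2 fold change was 0.22 for RPS genes and 0.01 for all features. The changes were small. A total of 45 members (81.8%) changed by less than 0.5 on the log2 scale, against 58.0% of all features. The count of members that rose was 13 without replicate 1, and also 13 without replicate 2, of bikaverin low SAM. With quantile normalization 31 rose and 3 fell, and with each library rescaled without ribosomal protein genes 35 rose and 3 fell, a rescaling that also moved the median of all features to 0.13.

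RPS genes moved both ways in the pRS416 pair. Here 31 members were called (56.4%), against 77.5% of 6342 features. Of them 16 rose and 15 fell, against 39.1% and 38.4% of features, and the median log2 fold change was -0.02 against -0.01 for all features. This balance rests on the scaling: with quantile normalization 8 rose and 29 fell, and rescaled without ribosomal protein genes 18 rose and 10 fell. Libraries did not overlap for 33 members (80.3% of all features), 17 with high SAM above (40.4%) and 16 below (39.9%). Again 44 members (80%) changed by less than 0.5, against 45.8% of all features. Haploid-cell markers fell in the same comparison, 13 of 14, with a summed level of 1166 to 1212 FPKM at low SAM and 211 to 230 FPKM at high SAM. Alpha-cell markers, such as the pheromone gene MF(ALPHA)1, fell in 4 of 4, from a sum of 966 to 1042 FPKM to one of 63.6 to 74.6 FPKM. Of 7 a-cell markers 2 rose and 4 fell, and no marker of these lists was at 0. Among the bikaverin strains 6 haploid markers rose and 2 fell, 4 of 4 alpha-cell markers rose, and 1 of 7 a-cell markers fell. The part of the mating-type state in the RPS results was not tested. In the pRS416 pair the marker change cannot be told apart from the SAM label, since each label is a single strain.

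Both comparisons use separate libraries. In both, 11 members rose, among them RPS0B, RPS1B, RPS2, RPS4A, RPS4B, RPS6B, RPS7B, RPS14B and RPS22A. Of the features tested in both 18.9% did so, and the count of members is near that share. Several of these calls were weak in the 6 fits that left out 1 library. In the bikaverin pair RPS4B was called in 1 of them, and RPS0B and RPS7B in 2 each. In the pRS416 pair RPS4A was called in 1 and RPS1B in 4. RPS6A and RPS28B fell in both, as did 19.1% of features. RPS26B and 1 other member rose in the bikaverin pair and fell in the pRS416 pair (4.17% of features), and RPS22B did the opposite (4.71%). The remaining members were called in 1 pair or in neither, the latter numbering 16. A test of the difference between the fold changes of the 2 pairs called 22 members, 18 upward and 4 downward in the bikaverin pair relative to the pRS416 pair, against 57.3% of 6278 features, 28% upward and 29.3% downward. Across the 55 genes, which share their libraries, Pearson's r between the log2 fold changes of the 2 pairs was 0.63 and Spearman's rho 0.47. Without RPS6A, RPS6B and RPS28B, which were chosen after their values were seen, r was 0.27 over 52 genes.

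**Figure D2:**
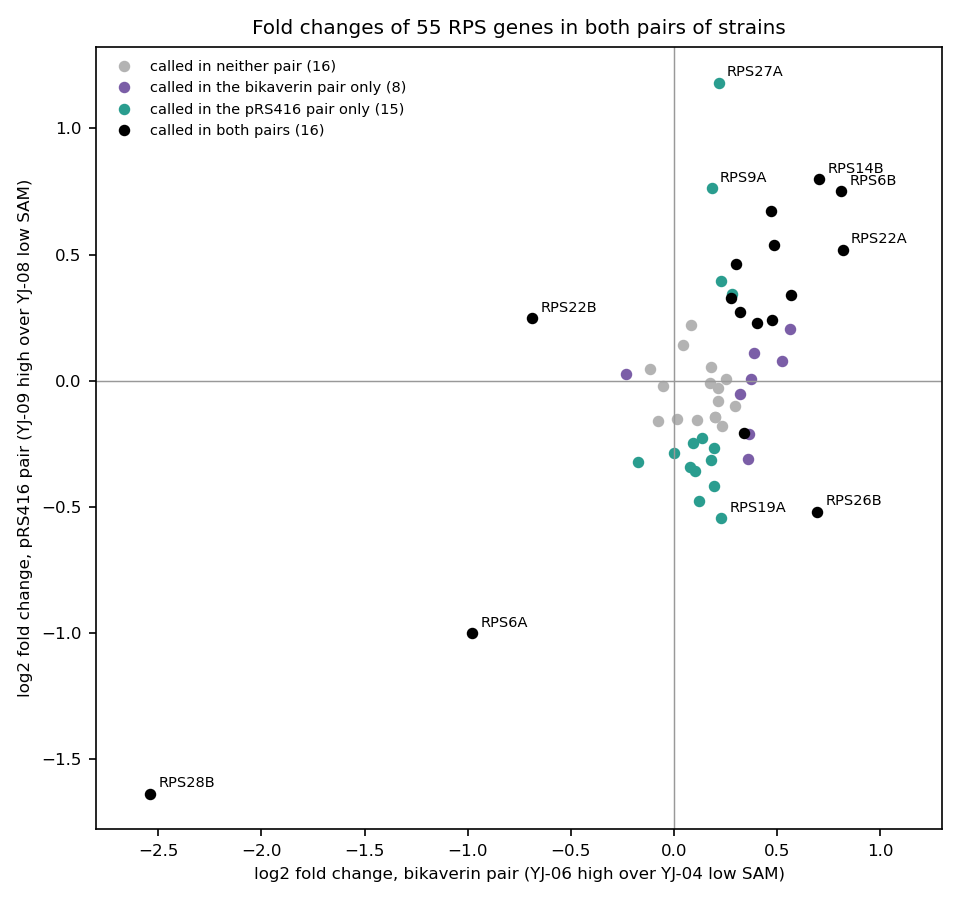
Log2 fold change of each of the 55 RPS genes in the bikaverin pair (horizontal) and the pRS416 pair (vertical), with colours for the comparisons in which it was called. RPS28B and RPS6A lie far to the lower left, 11 genes called in both lie at the upper right, and RPS26B and RPS22B lie on opposite sides of the diagonal.

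RPS28B had the largest change of any member. Rps28 lies in the head of the subunit near the mRNA exit, and the RPS28B message is known to be destabilised by its own protein through the decapping factor Edc3. RPS28B stood at 289, 324 and 333 FPKM in bikaverin low SAM and at 51.2, 58.0 and 50.9 FPKM in high SAM. Every high-SAM library was far below every low-SAM library, and the mean was 5.91-fold lower (log2 fold change -2.54 ± 0.09 SE, adjusted p = 1.1e-06). Among the pRS416 libraries RPS28B had 583, 606 and 572 FPKM at low SAM and 230, 180 and 160 FPKM at high SAM. Again the groups did not overlap, and the mean was 3.09-fold lower (log2 fold change -1.64 ± 0.12, adjusted p = 1.7e-06).

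The partner RPS28A had 505, 540 and 456 FPKM in bikaverin low SAM and 623, 579 and 523 FPKM in high SAM, and 613, 457 and 451 FPKM and 462, 409 and 496 FPKM in pRS416 low and high SAM. These groups overlapped in both pairs and RPS28A was not called (adjusted p = 0.14 and 0.32). RPS28A's share of the 2 messages was 61.3% ± 3.1 (SD, n = 3) in bikaverin low SAM and 91.5% ± 0.81 in high SAM, and 46.1% ± 4.5 and 70.6% ± 4.5 in pRS416 low and high SAM. The log2 ratio of A to B within a library, which does not depend on the library's scaling, was tested with limma over all 60 A and B named pairs of the genome. For RPS28 it moved toward A by 2.74 ± 0.12 (SE) in the bikaverin pair and by 1.49 ± 0.19 in the pRS416 pair, and the difference between the moves was called (1.245 ± 0.239, adjusted p = 0.0010). The summed level of both genes was 816 ± 42 FPKM and 628 ± 50.7 FPKM in bikaverin low and high SAM, and 1094 ± 90.5 and 646 ± 52.4 FPKM in the pRS416 groups, without overlap in either pair.

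The upstream regions of the 2 genes are shown because both hold the core of the Abf1 site, TCA and ACG with 6 bases of any kind between, in capitals on the strand opposite to the gene. It ends 152 bases before the first coding base of RPS28A (chrXV:649136-649195, minus strand) and 169 bases before that of RPS28B (chrXII:672926-672985, plus strand).
RPS28A: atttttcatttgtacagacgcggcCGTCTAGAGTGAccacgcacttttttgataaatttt
RPS28B: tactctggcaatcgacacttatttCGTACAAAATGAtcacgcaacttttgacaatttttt

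In windows from 250 bases before to 50 bases after the first coding base, searched on both strands, this core was found for 10 of 55 members (18.2%) and for 14.4% of all 6007 windows. Both RPS28 genes, both RPS21 genes and both RPS22 genes were among them. The Rap1 core ACCCNNACA was found for 4 members (7.27%, against 2.83% of all), and GACGC, common in Fhl1-bound promoters, for 18 (32.7%, against 17.8%). The PAC motif GCGATGAG was in none of the members' windows (3.93% of all) and the RRPE motif AAAAATTTT in 2 (6.99% of all). A match gives only the presence of these letters. Sites further upstream, or with other letters, were not searched for, so a missing match does not show that a gene lacks a site. The ABF1 message itself fell in both comparisons, from 73.7 to 42.6 FPKM in the bikaverin pair and from 46.3 to 30.2 FPKM in the pRS416 pair. Of all features 19.1% fell in both, and a part of ABF1 in the RPS28B change was not tested.

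RPS6 had one paralog fall and the other rise. Rps6 is a body protein and the classical phosphorylation target downstream of TORC1. RPS6A had 488, 526 and 567 FPKM in bikaverin low SAM and 301, 276 and 228 FPKM in high SAM. RPS6B had 406, 414 and 433 FPKM and then 783, 745 and 677 FPKM. The genes crossed over in every library of the high-SAM strain, with log2 fold changes of -0.98 ± 0.12 (adjusted p = 0.00038) for A and 0.81 ± 0.09 (adjusted p = 0.00022) for B.

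The pRS416 pair gave like values. There RPS6A had 533, 543 and 487 FPKM at low SAM and 260, 258 and 261 FPKM at high SAM, and RPS6B had 391, 398 and 372 and then 641, 615 and 704 FPKM. The groups did not overlap for either gene, RPS6A was 2.01-fold lower (adjusted p = 1.0e-06) and RPS6B 1.69-fold higher (adjusted p = 1.5e-05). The ratio moved toward B by -1.79 ± 0.07 and -1.75 ± 0.06 in the 2 pairs, and these moves differed by -0.04 ± 0.09 (SE, adjusted p = 0.74). RPS6A's share went from 55.8% ± 1.1 to 26.7% ± 1.3 and from 57.4% ± 0.57 to 28.5% ± 1.3. The sum of both genes overlapped between low and high SAM in each pair, at 945 ± 52.6 and 1003 ± 90.4 FPKM and at 908 ± 43.3 and 913 ± 47.1 FPKM. These 2 genes share most of their windows, so the size of each gene's change is less certain than that of RPS28B.

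**Figure D3:**
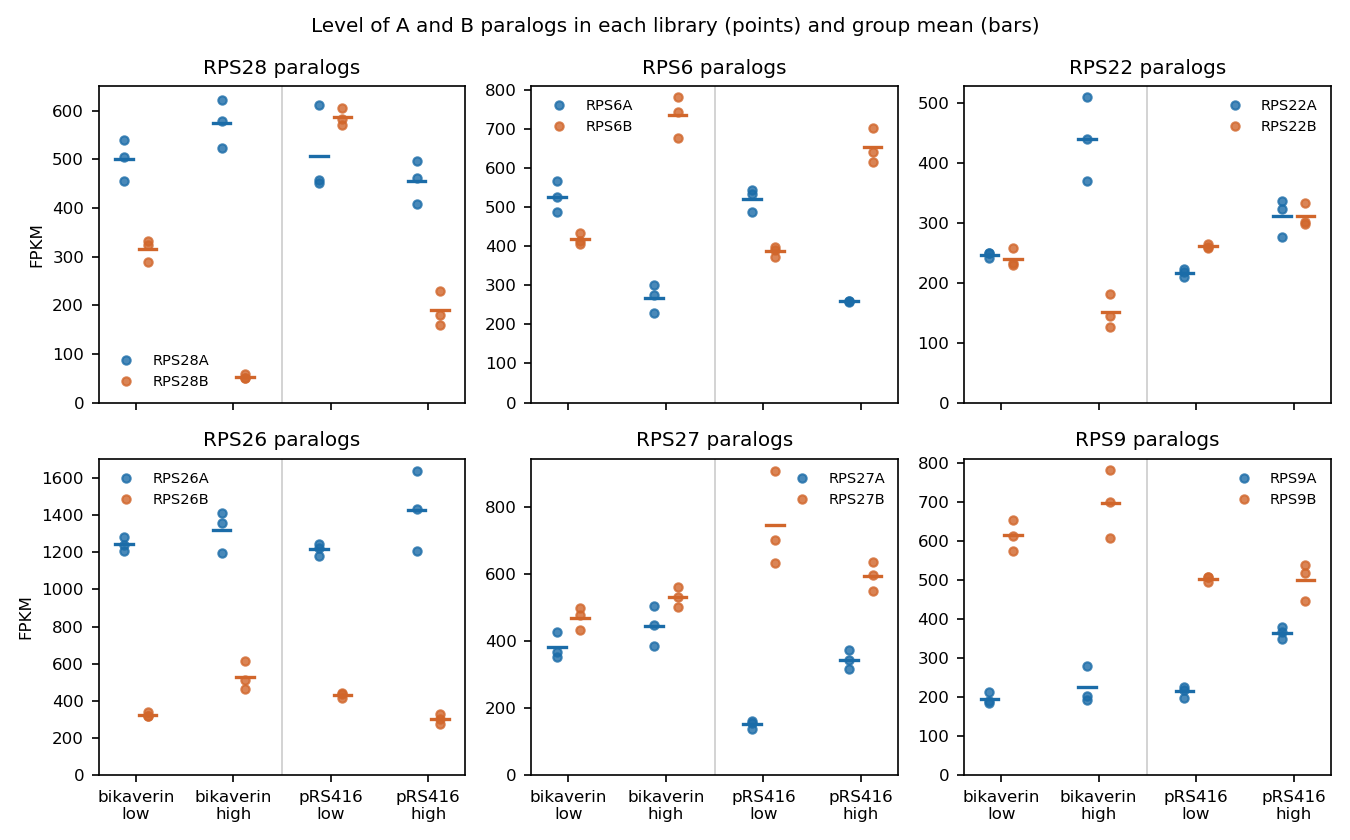
FPKM (vertical axis from 0) of the A gene (blue) and B gene (orange) of 6 RPS pairs in each library, with bars at the mean of 3. RPS28B falls in both comparisons, RPS6A and RPS6B cross over in both, and RPS22, RPS26, RPS27 and RPS9 change differently in the bikaverin and pRS416 strains.

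RPS22 encodes a body protein of the platform region. RPS22A (YJL190C) rose from 241, 250 and 249 FPKM to 509, 439 and 369 FPKM in the bikaverin pair (log2 fold change 0.82 ± 0.12, adjusted p = 0.00090). RPS22B (YLR367W), whose intron holds the small nucleolar RNA gene SNR44, fell from 230, 258 and 233 FPKM to 181, 145 and 125 FPKM (log2 fold change -0.69 ± 0.14, adjusted p = 0.0036). The share of A thus went from 50.7% ± 1.3 to 74.6% ± 0.73.

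Both RPS22 genes rose in the pRS416 pair. RPS22A went from 218, 222 and 210 FPKM to 322, 277 and 336 FPKM (0.52 ± 0.08, adjusted p = 0.00033) and RPS22B from 258, 260 and 265 FPKM to 301, 298 and 333 FPKM (0.25 ± 0.07, adjusted p = 0.0088). The low and high libraries did not overlap for either gene. The ratio moved toward A by 1.51 ± 0.06 and 0.27 ± 0.07 in the 2 pairs of strains, a difference of 1.24 ± 0.09 (adjusted p = 8.2e-07).

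RPS14B (YJL191W) is the neighbour of RPS22A on chromosome X, 298 bases away in convergent orientation with no annotated gene between them. Rps14 is an essential body protein that is known to repress splicing of the RPS14B transcript. RPS14B had 183, 213 and 205 FPKM in bikaverin low SAM and 337, 330 and 312 FPKM in high SAM (0.70 ± 0.09, adjusted p = 0.00043). In the pRS416 strains RPS14B had 197, 217 and 194 FPKM and 343, 294 and 435 FPKM (0.80 ± 0.13, adjusted p = 0.00036). All high-SAM libraries were above all low-SAM libraries in each pair. RPS14A, the main copy, supplied 84.3% ± 0.64 and 79.4% ± 0.80 of RPS14 messages in the bikaverin groups and 76.9% ± 1.8 and 71.5% ± 2.1 in the pRS416 groups.

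RPS26 went opposite ways in the 2 backgrounds. Rps26 is a body protein at the mRNA exit channel. RPS26B (YER131W) had 340, 317 and 317 FPKM in bikaverin low SAM and 615, 514 and 461 FPKM in high SAM, all above the low-SAM libraries (0.70 ± 0.12, adjusted p = 0.0016). Of the pRS416 libraries those at low SAM had 443, 439 and 417 FPKM of RPS26B and those at high SAM 328, 277 and 302 FPKM, all below (-0.52 ± 0.08, adjusted p = 0.00023). The difference between these fold changes was 1.22 ± 0.14 (adjusted p = 1.7e-05). RPS26A, the main copy, was called in neither pair, at means from 1216 to 1427 FPKM, so its share of messages was 79.3% ± 1.1 and 71.5% ± 1.6 in bikaverin low and high SAM and 73.7% ± 0.82 and 82.4% ± 1.8 in the pRS416 groups.

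RPS27A and RPS9A changed in the pRS416 pair. Rps27 is a zinc-binding body protein, and RPS27A (YKL156W) had 137, 163 and 155 FPKM at low SAM and 374, 317 and 343 FPKM at high SAM, without overlap. This was the largest rise of any member (1.18 ± 0.09, adjusted p = 1.9e-06). RPS27B, the partner, had 907, 633 and 702 FPKM at low and 597, 551 and 636 FPKM at high SAM, which overlapped, and was called lower (-0.32 ± 0.13, adjusted p = 0.049), a call kept in 2 of the 6 fits that left out 1 library. The bikaverin libraries had 368, 353 and 426 FPKM of RPS27A at low and 504, 447 and 386 FPKM at high SAM, the groups overlapped, and the gene was not called (adjusted p = 0.17). The difference between the fold changes was -0.96 ± 0.16 (adjusted p = 0.00025). The pRS416 low-SAM strain stood apart in this pair, with 17.2% ± 3.7 of RPS27 messages from the A gene against 36.7% to 45.5% on average in the other 3 groups.

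RPS9A (YPL081W) encodes a body protein near the mRNA entry. It had 226, 219 and 199 FPKM in pRS416 low SAM and 349, 366 and 378 FPKM in high SAM (0.76 ± 0.07, adjusted p = 1.0e-05). RPS9A in the bikaverin pair had 185, 190 and 213 FPKM and 278, 204 and 193 FPKM, which overlapped (adjusted p = 0.31). RPS9B, the main copy, was called in neither pair. The change of the RPS9 ratio differed between the pairs by -0.77 ± 0.12 (adjusted p = 0.00040).

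Across the 23 paralog pairs, the ratio moved in 13 in the bikaverin pair and in 17 in the pRS416 pair. Over all 60 A and B named pairs 53.3% and 76.7% were called, and over the 37 pairs other than RPS 51.4% and 78.4%, so the RPS counts are near the background. Toward A moved 5 in the bikaverin pair (RPS10, RPS21, RPS22, RPS28 and RPS29), with 8 toward B, and 6 in the pRS416 pair (among them RPS9, RPS22, RPS26, RPS27 and RPS28), with 11 toward B. Toward B in both went 7 (among them RPS0, RPS6, RPS7, RPS14, RPS16 and RPS18), and toward A in both went RPS22 and RPS28. RPS21 and RPS26 moved in opposite directions. RPS4, RPS23, RPS24 and RPS25 were called in neither.

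Outside RPS6 the shared moves toward B were modest. For RPS7 the log2 ratio moved by -0.21 ± 0.05 and -0.71 ± 0.08. RPS7B (YNL096C) rose from 217, 238 and 255 FPKM to 327, 322 and 328 FPKM in the pRS416 pair (0.46 ± 0.07, adjusted p = 0.00036), and RPS7A fell there (-0.25 ± 0.08, adjusted p = 0.024). The difference between the moves was called (0.50 ± 0.10, adjusted p = 0.0012).

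RPS0, RPS14, RPS16 and RPS18 moved toward B by 0.23 to 0.48 on the log2 scale in each pair, and the difference between the pairs was not called for any of the 4. In all, 14 of 23 ratio changes differed between the pairs of strains, against 55% of the 60 pairs and 51.4% of those other than RPS. Across the 23 pairs Pearson's r between the 2 sets of ratio changes was 0.64 and Spearman's rho 0.53, and without RPS6 and RPS28 r was 0.20 over 21 pairs.

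**Figure D4:**
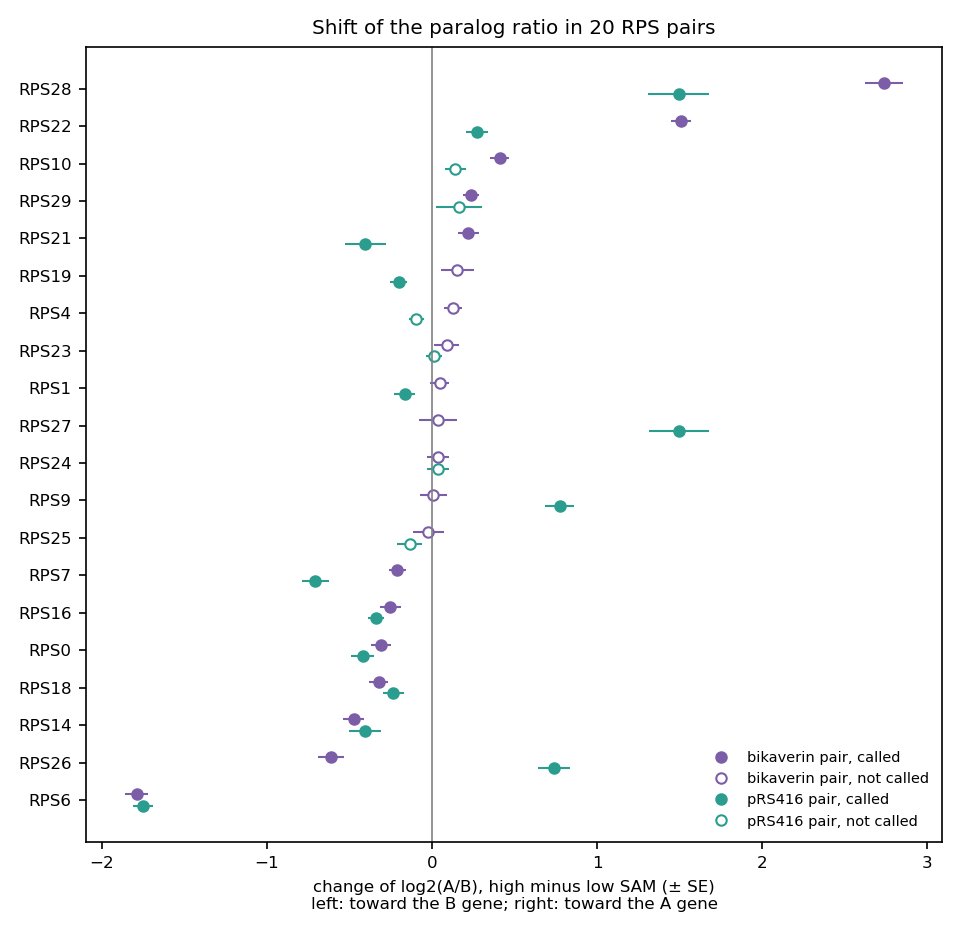
Change of log2(A/B) from low to high SAM (horizontal axis, ± SE) for 20 of the 23 RPS paralog pairs, in the bikaverin pair (purple) and the pRS416 pair (green), with filled points for called changes. RPS6 moves toward B by -1.79 and -1.75, RPS28 toward A in both, and RPS26 moves in opposite directions.

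Among the single-copy genes, 4 of 8 (50%) rose in the bikaverin pair, against 28.8% of all features, and none fell (27.9%). RPS2 (YGL123W), a body protein at the mRNA entry and a target of arginine methylation by Hmt1, had 501, 513 and 519 FPKM at low SAM and 845, 759 and 680 FPKM at high SAM (0.57 ± 0.10, adjusted p = 0.0021). All of its high-SAM values lay above the low-SAM ones. RPS13 and RPS15 rose by 0.37 each (adjusted p = 0.036 and 0.011). Of the 6 fits that left out 1 library, 2 kept the call of RPS13 and all 6 kept that of RPS15.

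With pRS416 RPS2 had 275 ± 4.2 FPKM at low SAM and 350 ± 38.9 FPKM at high SAM, and RPS3, a head protein at the mRNA entry, had 679 ± 26.7 and 864 ± 79.1 FPKM. Both rose (adjusted p = 0.0050 and 0.0052). RPS12 fell, from 1019 ± 68.2 to 848 ± 40.6 FPKM (adjusted p = 0.015). RPS20 and RPS31 were called in neither pair, at means of 1072 to 1193 and 1122 to 1382 FPKM. RPS1A (YLR441C), of the paralogous genes, rose in the bikaverin pair from 601, 632 and 657 FPKM to 1030, 896 and 806 FPKM (0.52 ± 0.11, adjusted p = 0.0048), without overlap. In the pRS416 pair RPS1A overlapped and was not called (0.08 ± 0.08, adjusted p = 0.40). The difference between its fold changes was called (0.45 ± 0.14, adjusted p = 0.014).

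The subunit has a head and a body. Of 22 genes for head proteins 1 rose (4.55%) and 9 fell (40.9%) in the pRS416 pair, with a median log2 fold change of -0.20. Of 33 genes for body proteins 15 rose (45.5%) and 6 fell (18.2%), with a median of 0.08. Of all features 39.1% rose and 38.4% fell, so the share of head genes that fell is near the background. With quantile normalization the counts were 0 and 17 for the head and 8 and 12 for the body, so that the body genes' balance turned while the head genes stayed below. In the bikaverin pair 5 head genes rose and 1 fell, and 15 body genes rose and 3 fell, with medians of 0.19 and 0.23, against 28.8% of all features higher and 27.9% lower. These counts also rest on the scaling: 12 head and 19 body genes rose with quantile normalization, and 13 and 22 when rescaled without ribosomal protein genes. No test was made of the lists.

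Both RPS19 genes, for a head protein, fell in the pRS416 pair. RPS19A (YOL121C) had 493, 403 and 387 FPKM at low SAM and 299, 281 and 295 FPKM at high SAM (-0.54 ± 0.10, adjusted p = 0.00062). RPS19B (YNL302C) had 753, 651 and 621 FPKM and 547, 521 and 525 FPKM (-0.34 ± 0.09, adjusted p = 0.0054). Neither gene's groups overlapped. RPS19A was not called in the bikaverin pair (0.23 ± 0.10, adjusted p = 0.092), and the difference between the fold changes was called (0.77 ± 0.15, adjusted p = 0.00069).

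Replicate 1 of pRS416 low SAM stood above its partners in this and other falls. RPS29B (YDL061C), a zinc-binding head protein gene, had 832, 605 and 660 FPKM at low SAM and 603, 461 and 444 FPKM at high SAM (-0.48 ± 0.15, adjusted p = 0.014), and the call was lost without that library (adjusted p = 0.057). RPS21A (YKR057W) had 529, 529 and 476 FPKM and 427, 405 and 364 FPKM (-0.36 ± 0.08, adjusted p = 0.0034), with no library apart. That replicate was the highest of its group for 35 of 55 members.

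RPS30B (YOR182C) fell in the bikaverin pair, from 414, 434 and 447 FPKM to 366, 374 and 360 FPKM. The groups did not overlap, but the call was weak (-0.23 ± 0.08, adjusted p = 0.033) and was lost without any 1 of 5 of the 6 libraries (adjusted p from 0.059 to 0.098). In the pRS416 pair it overlapped and was not called (adjusted p = 0.85).

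The levels of the genes for each protein were also summed, for the 31 proteins whose genes are all included. Of the bikaverin sums 29 were higher on average at high SAM and 2, RPS25 and RPS28, were lower, and 13 did not overlap. Of the pRS416 sums 16 were higher and 15 lower, and 16 did not overlap. Among all single features 65.6% did not overlap in the bikaverin pair and 80.3% in the pRS416 pair, so the sums separated less often. The sums were taken at the deposited scaling only, and the counts of members above moved with the scaling. RPS28 had the lowest log2 ratio of sums in both (-0.38 and -0.76), and RPS2 (0.58) and RPS14 (0.51) had the highest.

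**Figure D5:**
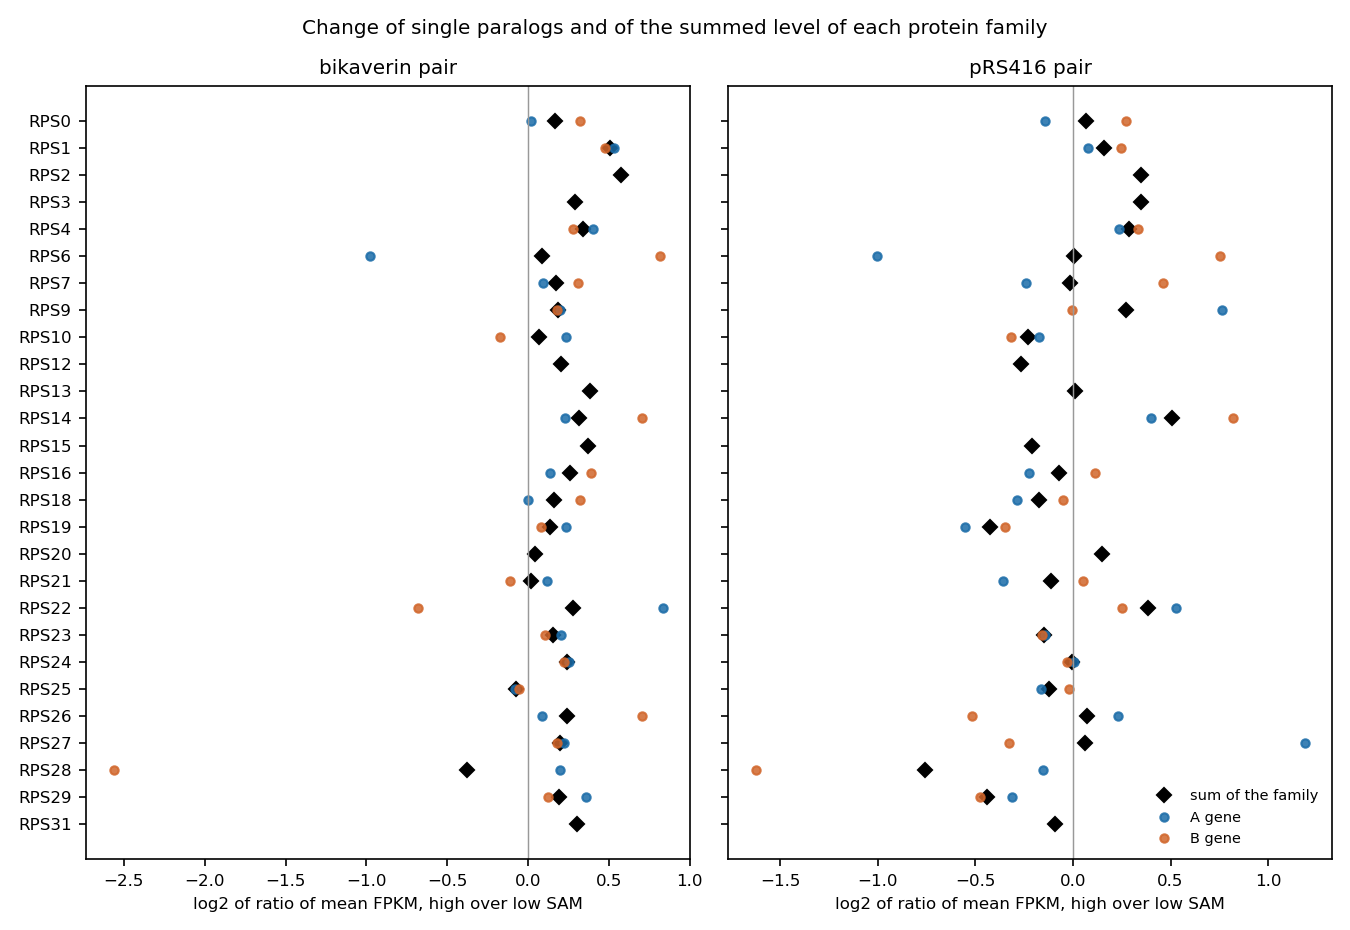
Log2 ratio of mean FPKM at high over low SAM for the sum of the genes of each of 27 proteins (black diamonds) and for its A (blue) and B (orange) gene, in the bikaverin pair (left) and the pRS416 pair (right). The sums range from -0.38 to 0.58 and from -0.76 to 0.51, while RPS6, RPS22 and RPS28 paralogs spread widely around theirs.

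Of 81 genes for proteins of the large subunit, 26 rose and 6 fell in the bikaverin pair (median log2 fold change 0.19) and 19 rose and 28 fell in the pRS416 pair (median -0.02). These are 32.1% and 7.41%, and 23.5% and 34.6%, of the list. The shares of all features, to which the lists that follow also compare, were 28.8% higher and 27.9% lower in the bikaverin pair and 39.1% and 38.4% in the pRS416 pair. Of 12 regulators of ribosomal protein genes, 5 rose and 3 fell in the bikaverin pair (41.7% and 25%) and 5 rose and 5 fell in the pRS416 pair (41.7% each). CRF1, the corepressor named above, fell from 144 ± 13.9 to 40.1 ± 4.0 FPKM (adjusted p = 1.2e-05) and from 263 ± 5.1 to 46.3 ± 1.3 FPKM (adjusted p = 1.4e-09). IFH1, the coactivator, rose in the bikaverin pair (0.74, adjusted p = 0.0012) and fell slightly in the pRS416 pair (-0.17, adjusted p = 0.049). SFP1 rose in both (0.77 and 0.29). DOT6, a repressor of ribosome synthesis genes, rose in the pRS416 pair from 138 ± 0.63 to 539 ± 30.4 FPKM (adjusted p = 1.2e-08) and was not called in the bikaverin pair, at 296 ± 27.7 and 356 ± 54.7 FPKM (adjusted p = 0.13). TOD6, of the same list, rose in both. It went from 36.6 ± 5.0 to 97.0 ± 7.5 FPKM in the bikaverin pair (adjusted p = 5.9e-05). In the pRS416 pair it went from 43.6 ± 1.9 to 69.6 ± 2.4 FPKM (adjusted p = 9.5e-06).

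Assembly factors build and export the 40S subunit, and methyltransferases modify its RNA and proteins. Of 17 assembly factors and chaperones, 11 rose (64.7%, against 28.8% of all features) and 1 fell (5.88%, against 27.9%) in the bikaverin pair. In the pRS416 pair 10 rose (58.8%, against 39.1%) and 4 fell (23.5%, against 38.4%), and 82.4% were called either way, against 77.5% of all features. RRP12, an export factor, rose from 27.1 ± 1.7 to 77.6 ± 17.8 FPKM and from 17.9 ± 1.2 to 39.8 ± 2.8 FPKM. RIO1, a kinase of late assembly, fell from 165 ± 7.8 to 93.2 ± 2.0 FPKM and from 148 ± 5.8 to 60.3 ± 3.3 FPKM. Of 7 genes for SAM-dependent methyltransferases of the subunit and their cofactor Trm112, 5 rose and none fell in the bikaverin pair, and 5 rose and 1 fell in the pRS416 pair, so 71.4% of the list rose in each, against 28.8% and 39.1% of all features.

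HMT1, the main arginine methyltransferase, which modifies Rps2, rose from 106 ± 17.9 to 291 ± 43.7 FPKM (adjusted p = 0.00017) and from 72.9 ± 3.9 to 161 ± 5.0 FPKM (adjusted p = 3.1e-07). DIM1, which methylates 18S ribosomal RNA, rose from 29.7 ± 1.6 to 70.1 ± 8.7 FPKM and from 26.3 ± 0.90 to 52.3 ± 2.2 FPKM. TAE1, which methylates the amino terminus of Rps25, was not called in the bikaverin pair (adjusted p = 0.78) and rose in the pRS416 pair from 18.8 ± 0.65 to 44.7 ± 8.3 FPKM (adjusted p = 1.1e-05). Of 16 translation factors and other proteins bound to the 40S subunit, 12 rose and none fell in the bikaverin pair, and 12 rose and 4 fell in the pRS416 pair. The risen share was 75% in each, against the same 28.8% and 39.1%, and the 4 that fell are 25%, against 38.4%.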

How the data were processed

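The authors deposited FPKM in 2 tables, 1 for each pair of strains, and the submitters' processing notes name fastp, HISAT2 2.0.5, featureCounts 1.5.0-p3 and build R64. Neither strandedness nor the annotation is stated in those notes. A column was assigned to a sample where its header matched the strain and library in the title. Another label field gives column names with other strain numbers, so the group of each column rests on titles and headers alone. From the steps of FPKM times exonic length, 97.3% to 98.8% of the values below 1000 reads came within 0.02 of whole reads, and scaling totals were 15.4 to 17.7 M (bikaverin) and 40.7 to 45.1 M (pRS416). In some libraries the reads recovered in matched genes exceeded the total, as in pRS416 high-SAM replicate 3 (45.1 against 43.1 M). The totals are therefore approximate as a depth. At 1 kb, 3 reads equal 0.0665 to 0.195 FPKM, and this floor covers counting error only. Symbols, exons and sequences come from the RefSeq R64 reference, with 86.8% and 87.0% of features matched.

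Fits used limma 3.58.1 in R 4.3.3 on log2(FPKM + 1), so fold changes are on that scale, with an intensity trend, where the mean reached 1 FPKM, and with no replicate block. Each pair was tested in its own table. The difference between pairs subtracts the pRS416 change from the bikaverin change in 1 fit of 12 libraries. Paralog ratios, log2((A + 1)/(B + 1)), were fitted without the trend. All tests are two-sided. The fits were tested on simulated data in which few genes changed and libraries varied independently. Here most features were called and some libraries shifted many members together, so that test does not give the error rate of these calls. Family sums and shares have no test. Members and gene lists were chosen with earlier results of these data known. Named with full values are up to 8 called members in each direction and pair of at least 10 FPKM without overlap of libraries. Also named are up to 5 differences between the pairs and up to 4 called genes per list. The 8 largest ratio changes in each pair were chosen too, and some are given by shares, a range or direction only. Partner paralogs, IFH1 and a listed gene's value in the other pair stand outside this rule. Some members, and the values that need their names, are not reported here.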

Additional observations from a re-analysis of the deposited data

Results flagged for a closer look

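In 5 members the fold change from low to high SAM differed most between the bikaverin and the pRS416 strains by the test of the difference itself (bikaverin minus pRS416, limma over 12 libraries). The log2 difference was 1.22 for RPS26B, -0.96 for RPS27A, -0.94 for RPS22B (adjusted p = 0.00029), -0.90 for RPS28B (adjusted p = 0.00050) and 0.77 for RPS19A. RPS28B fell in both comparisons and more so in the bikaverin pair, whereas RPS26B and RPS22B went opposite ways. Of all 55 members, 22 differed (40%), 18 of them upward and 4 downward, against 57.3% of 6278 features, 28% upward and 29.3% downward.

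The change of the A to B ratio differed between the pairs of strains by -1.46 for RPS27, -1.35 for RPS26, 1.245 for RPS28, 1.24 for RPS22, -0.77 for RPS9, 0.62 for RPS21 (adjusted p = 0.0038) and 0.50 for RPS7. For RPS6 the difference was -0.04 (adjusted p = 0.74). The low-SAM starting levels also differ between the 2 backgrounds. Summed haploid-cell and alpha-cell markers fell in the pRS416 pair only, between its low-SAM and high-SAM strains. The part of the starting levels and of the markers in these differences was not tested. Each pair of strains was also scaled separately and had its own depth, with totals of 15.4 to 17.7 M (bikaverin) and 40.7 to 45.1 M (pRS416). Background, depth and separate processing therefore cannot be told apart. Nor can the marker change and the SAM label within the pRS416 pair, where each label is a single strain.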

How the results depend on the processing

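Paralog ratio calls changed little: counts stayed between 10 and 14 (bikaverin), 15 and 18 (pRS416) and 11 and 14 (difference), all 284 refits of named ratio changes kept direction and call, and 10 of 13 and 15 of 17 called pairs were called in every fit that left out 1 library (lost were RPS7 and RPS21 among others, and RPS1 and RPS21). Of refits of named members 482 kept their call and 10 lost it, all of RPS30B or RPS29B (with array weights, chosen after seeing the data, RPS29B had adjusted p = 0.072), and none reversed. In all, 16 of 24 and 22 of 31 member calls were kept without each library in turn. Counts of members depend on scaling and weights. In the bikaverin pair 38 were called when rescaled without ribosomal protein genes and 40 with array weights, whose estimation stopped short of its tolerance, with 31 (quantile normalization), 35 (rescaled) and 36 (weights) higher, and 13 to 28 higher when 1 library was left out. In the pRS416 pair quantile normalization gave 8 higher and 29 lower, and the median log2 fold change, -0.0231, was -0.220 with quantile normalization, 0.0432 when rescaled, and -0.0561 to 0.0134 when 1 library was left out (0.0134 without high-SAM replicate 2). For the difference 42 were called with quantile normalization and 35 with weights, 38 and 31 of them upward, and 10 to 27 upward with 1 library left out, the lowest without pRS416 low-SAM replicate 1, and 11 without bikaverin low-SAM replicate 1, bikaverin high-SAM replicate 2 or pRS416 high-SAM replicate 2. The cause was not tested. As a share of matched reads RPS genes took 1.57%, 1.90%, 1.55% and 1.51% in the 4 groups, lower than of FPKM because their genes are short, and over only members with more than 50% unique windows the share of FPKM was 3.25% (bikaverin low) and 2.97% (pRS416 low). Same-numbered libraries did not deviate together (r from -0.14 to 0.12), and not every library correlated best with its own number, so the samples share only a number; with a replicate block 18, 29 and 16 members and 13, 16 and 11 ratios were called. At 1 kb, 3 reads equal at most 0.195 FPKM, while the lowest group mean of a member was 53.4 FPKM.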
